A study of Rattus norvegicus with 12 samples.

Results

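The 10 genes described here belong to the circadian clock and to its direct outputs. They are the activators Bmal1, Clock and Npas2, the nuclear receptor repressors Nr1d1 and Nr1d2, the period genes Per1, Per2 and Per3, and the output transcription factors Dbp and Tef. The members were selected from earlier results of these same arrays, so their levels are given as a description and the adjusted p values beside them stand for no independent test. Each symbol stood alone on 1 probe set of the array, so that no choice among probe sets by mean intensity was needed, and all 10 of the 10 members passed the filter on low values. They are 10 of 14506 genes that the array annotation names alone on a probe set.

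RNA came from whole mammary glands of female Lewis rats that had been ovariectomized at about 10 weeks of age and left for 14 days, which all groups shared. The 4 groups of 3 rats, with 1 array per rat, received either E2 + 3-MC, or E2 only, or 3-MC only, or vehicle, by subcutaneous injection on 3 occasions spaced 24 hr apart. E2 (17β-estradiol, the main estrogen, at 4 μg/kg/day) acts through the estrogen receptors, 3-MC (3-methylcholanthrene, a polycyclic aromatic hydrocarbon, at 15 mg/kg/day) is a ligand of the aryl hydrocarbon receptor (AHR), and the vehicle was a mixture of DMSO and castor oil. Injections were given 2 hr into a light period of 12 hr, and 24 hr passed between the last of them and the removal of the glands. The glands were thus nominally taken at the same time of day as the injections, and how far the hour varied between rats is not given in the sources used here. A whole gland holds fat, ducts, vessels, immune cells and at times skeletal muscle, and in such bulk tissue fewer cells of a type and less RNA per cell cannot be told apart.

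The mammalian clock is a loop of transcription factors that runs in nearly every tissue. BMAL1, paired with CLOCK or with its relative NPAS2, binds E-boxes and raises transcription of the Per genes, of Nr1d1 and Nr1d2, and of Dbp and Tef. PER proteins, together with cryptochromes, inhibit that pair. NR1D1 and NR1D2 (REV-ERBα and REV-ERBβ) bind ROR elements and repress Bmal1 and Npas2, while DBP and TEF bind D-boxes. For this reason Bmal1 and Npas2 peak at another time of day than Nr1d1, Dbp and the Per genes in tissues with a running clock. AHR belongs to the same protein family as BMAL1, CLOCK and NPAS2, the family defined by the bHLH and PAS domains.

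The start regions of 3 members show these elements and are printed because each carries a site through which the loop is described to act. They are RefSeq sequences of the GRCr8 rat assembly, from 250 bases before a transcript start to 50 bases after it, written along the gene's own strand with the searched letters in capitals. In Bmal1 the capitals mark a ROR element (TAGGTCA), in Nr1d1 an E'-box on the opposite strand (CACGTT, which reads AACGTG here), and in Per2 a D-box (TTATGTAA) followed by an E'-box (CACGTT).
Bmal1, chr1:176766078-176766377, plus strand: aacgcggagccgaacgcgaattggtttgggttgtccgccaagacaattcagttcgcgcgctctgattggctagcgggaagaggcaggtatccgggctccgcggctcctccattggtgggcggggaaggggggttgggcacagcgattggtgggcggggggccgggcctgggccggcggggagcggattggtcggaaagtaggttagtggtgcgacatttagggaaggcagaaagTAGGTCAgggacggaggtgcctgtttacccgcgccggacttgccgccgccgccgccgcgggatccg
Nr1d1, chr10:84231763-84232062, minus strand: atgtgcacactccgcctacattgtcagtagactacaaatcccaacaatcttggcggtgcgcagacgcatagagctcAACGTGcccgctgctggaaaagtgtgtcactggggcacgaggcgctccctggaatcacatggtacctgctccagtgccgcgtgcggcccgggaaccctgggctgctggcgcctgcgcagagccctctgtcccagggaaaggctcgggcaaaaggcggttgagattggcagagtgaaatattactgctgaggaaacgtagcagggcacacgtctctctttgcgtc
Per2, chr9:99496944-99497243, minus strand: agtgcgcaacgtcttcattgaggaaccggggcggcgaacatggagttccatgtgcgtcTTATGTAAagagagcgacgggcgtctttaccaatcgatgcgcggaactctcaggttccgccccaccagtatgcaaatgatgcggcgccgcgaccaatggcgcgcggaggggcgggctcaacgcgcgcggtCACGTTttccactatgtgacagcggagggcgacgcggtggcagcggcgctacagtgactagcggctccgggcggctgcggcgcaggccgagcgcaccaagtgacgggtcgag
All 10 members had such a region of 300 bases among 33469 in the table. For Per1 and Tef it lay well inside the gene, at chr10:54304126-54304425 and chr7:115206577-115206876, and for Npas2 and Per3 just inside it. The bases before the outer start of these genes were therefore not searched. Both strands were searched. The ROR element, as TAGGTCA or TGGGTCA, was found in 1 of the 10 (Bmal1, 16 bases before the start) and in 6.6% of all regions. The E-box CACGTG was found in 1 (Tef) and in 6.42% of all, the E'-box CACGTT in 2 (Nr1d1 and Per2) and in 4.83% of all, and the D-box, as TTATGTAA or TTACGTAA, in 1 (Per2) and in 1.01% of all. The core of the site AHR binds, GCGTG, was found in 5 members (Npas2, Nr1d1, Dbp, Tef and Per3) and in 29.7% of all regions. The cyclic AMP element TGACGTCA and the palindromic estrogen response element were found in 0 of the 10, and in 1.83% and 0.0269% of all regions. A match is a description of letters in this window.

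The 10 members differed most between E2 + 3-MC and E2. In rats given both compounds, the repressors Nr1d1 and Nr1d2, the outputs Dbp and Tef, and Per2 and Per3 had intensities above every rat given E2 alone, whereas Bmal1, Clock and Npas2 lay below every one of them. Per1 was the 1 member whose groups overlapped. The groups thus did not overlap for 6 members in the higher direction, against 12% of all 23371 probe sets tested, and for 3 members in the lower direction, against 5.93%. The same members separated when the arrays were centred on their medians or quantile-normalized again. The shares of all probe sets were then 8.01% higher and 14.3% lower after centring, and 9.05% and 12.1% after quantile normalization. Shares given below are for the arrays as deposited unless a rescaling is named. With 3 rats against 3, a two-sided exact permutation test of a single gene cannot give a p below 0.1.

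In the model of all 4 groups (limma, Benjamini-Hochberg adjusted p below 0.05 over all probe sets tested and at least 1.5-fold), 0 of the 10 members passed between E2 + 3-MC and E2, and 0.0% of all probe sets did. At an unadjusted p below 0.05 with the same fold 4 members passed (Dbp, Nr1d1, Per3 and Npas2), against 2.76% of all probe sets. When only the 6 arrays of these groups were fitted, Nr1d1 and Dbp rose with E2 + 3-MC relative to E2, in a fit where 1.15% of all probe sets rose and 0.385% fell. The median size of the difference over the 10 members was 0.515 on the log2 scale, against 0.133 over all probe sets tested. All differences are on the scale log2(intensity + 16), which understates the change of dim genes.

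**Figure D1:**
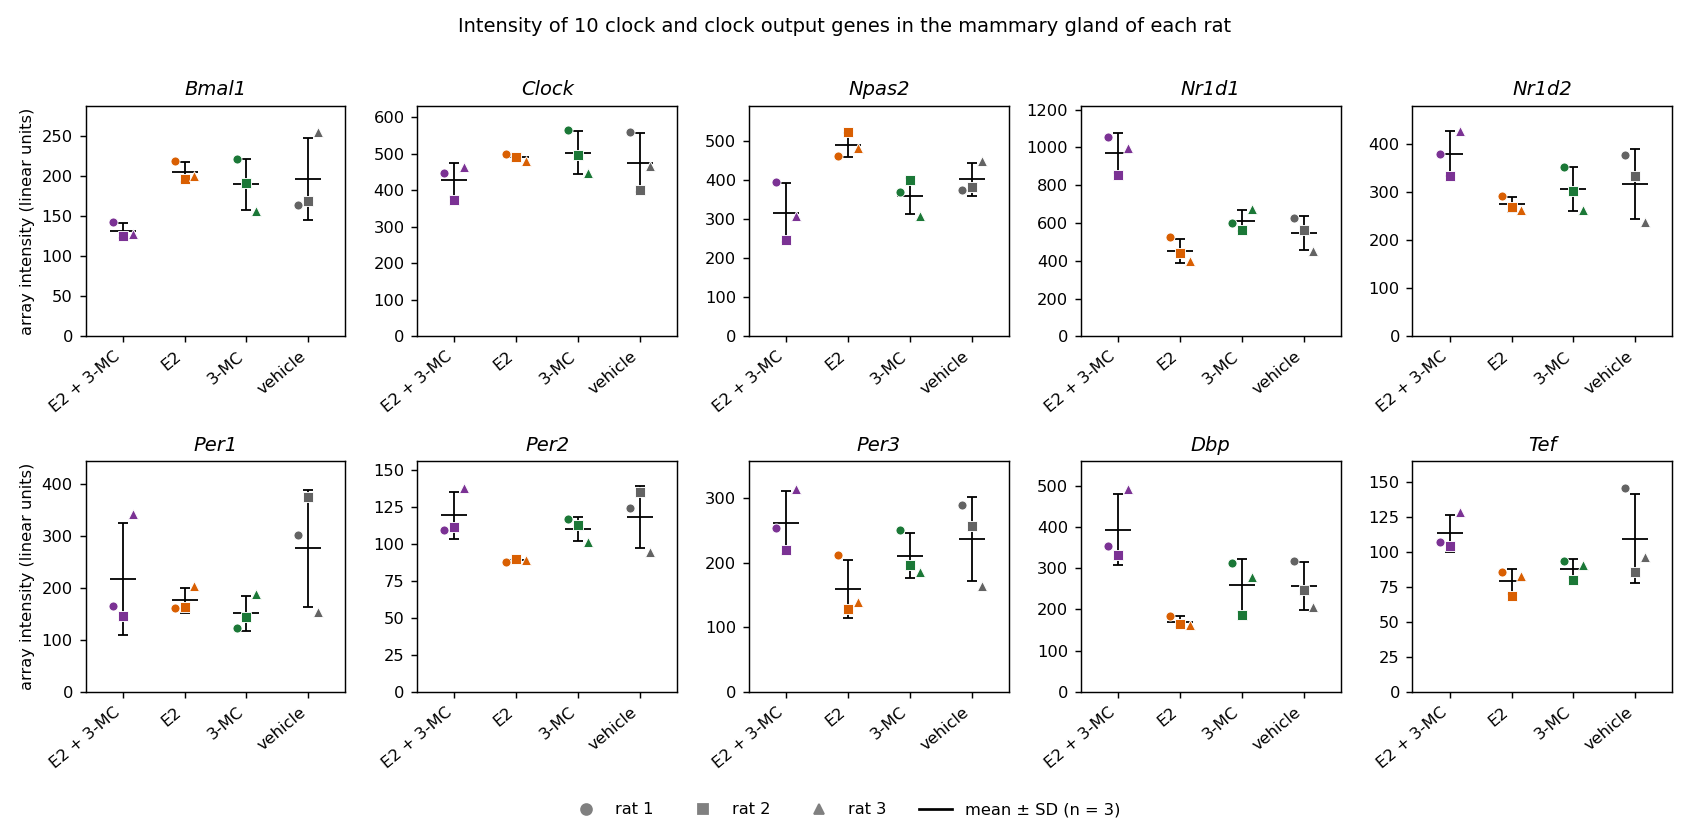
Intensity (linear units, axes starting at 0) of each of the 10 members in each rat of the groups E2 + 3-MC, E2, 3-MC and vehicle, with symbols for rats 1 to 3 and bars for the mean ± SD (n = 3). Nr1d1 and Dbp lie highest and Bmal1 lowest in the E2 + 3-MC rats, where Nr1d1 spans 853 to 1058 and Bmal1 125 to 142.

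Nr1d1 (chr10:84224599-84231812), the heme-binding repressor of the loop, had the smallest p of the 10 in this comparison. Its intensity was 1058, 853 and 997 in the 3 E2 + 3-MC rats, against 524, 439 and 396 in the E2 rats. It was 601, 561 and 672 in 3-MC rats, against 628, 560 and 452 in vehicle-treated rats. Every E2 + 3-MC rat was above all 9 others. Its mean was 969 ± 105 with E2 + 3-MC and 453 ± 64.9 with E2 (SD, n = 3 each), a log2 difference of 1.07 (SE 0.153), or 2.11-fold, with an adjusted p of 0.101 in the model of 4 groups and of 0.00736 in the fit of the 6 arrays (limma). In descending order the group means were E2 + 3-MC, 3-MC (611 ± 56.3), vehicle (547 ± 89.0) and E2. The ranges of 3-MC and vehicle overlapped, as did those of vehicle and E2. The gene overlaps one end of Thra, the thyroid hormone receptor alpha gene, at chr10:84198141-84225659. Thra had intensities of 426, 312 and 374 in E2 + 3-MC rats, against 423, 381 and 379 in E2 rats, which overlapped.

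Nr1d2 (chr15:9955034-9981329), the second REV-ERB repressor, had 379, 333 and 426 in E2 + 3-MC rats, against 292, 269 and 261 in E2 rats. These groups did not overlap, with a log2 difference of 0.44 (SE 0.169, adjusted p = 0.506). It had 353, 302 and 263 in 3-MC rats, against 378, 334 and 237 in vehicle-treated rats, and both of these groups overlapped with each other and with the co-treated rats.

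Bmal1 (chr1:176766222-176864741), the partner without which the activating pair does not form, had 142, 125 and 127 in E2 + 3-MC rats, against 219, 197 and 200.2 in E2 rats. It had 221, 192 and 157 in 3-MC rats, against 165, 169 and 255 in vehicle-treated rats. The 3 co-treated rats had the lowest values of all 12, while the other 3 groups overlapped. The mean was 132 ± 9.33 with E2 + 3-MC and 205 ± 12 with E2 (n = 3 each), a log2 difference of -0.58 (SE 0.166). Its adjusted p was 0.414 in the model of 4 groups and 0.0407 in the fit of the 6 arrays, where its fold of 0.667 did not reach the fold threshold.

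Npas2 (chr9:48959225-49138036), which can take the place of CLOCK, had 397, 248 and 307 in E2 + 3-MC rats, against 463, 523 and 483 in E2 rats. Its log2 difference was -0.62 (SE 0.163, adjusted p = 0.397), with no overlap. It had 370, 400.0 and 309 in 3-MC rats, against 375, 382 and 451 in vehicle-treated rats, so that the E2 rats were above all others. Clock (chr14:32262747-32346872) differed least of the activators, with 446, 374 and 464 in E2 + 3-MC rats, against 499, 490.4 and 480.4 in E2 rats. The log2 difference of Clock was -0.19 (SE 0.144) with a confidence interval of -0.50 to 0.12, and although the groups did not overlap the nearest rats were 464 with E2 + 3-MC and 480.4 with E2. Without rat 2 of the co-treated group the difference of Clock was -0.10.

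Dbp (chr1:105312256-105317205), a PAR bZIP factor and one of the most widely used readouts of clock phase, had 355, 333 and 492 in E2 + 3-MC rats, against 185, 163 and 162 in E2 rats. It had 312, 186 and 278 in 3-MC rats, against 319, 248 and 205 in vehicle-treated rats. Every E2 + 3-MC rat was above all 9 others, and the E2 rats lay below all others. The mean was 393 ± 86.1 with E2 + 3-MC and 170.0 ± 12.8 with E2 (n = 3 each). The log2 difference was 1.12 (SE 0.204), or 2.17-fold, with an adjusted p of 0.26 in the model of 4 groups and of 0.00784 in the fit of the 6 arrays.

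Tef (chr7:115197180-115221930), a relative of Dbp, had 107, 105 and 128 in E2 + 3-MC rats, against 85.6, 68.3 and 82.5 in E2 rats. The log2 difference was 0.45 (SE 0.166, adjusted p = 0.493), with no overlap. Tef had 93.5, 80.2 and 90.3 in 3-MC rats, against 146, 85.8 and 96.6 in vehicle-treated rats, where vehicle rat 1 had the highest value of all 12 rats.

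The period genes encode the feedback inhibitors of the loop. Per3 (chr5:166740914-166778243) had 253, 219 and 314 in E2 + 3-MC rats, against 211, 129 and 140 in E2 rats, a log2 difference of 0.68 (SE 0.222, adjusted p = 0.466). Per2 (chr9:99454828-99497069) had 109, 112 and 138 in E2 + 3-MC rats, against 88.0, 89.7 and 88.9 in E2 rats, a log2 difference of 0.36 (SE 0.139, adjusted p = 0.502). Neither overlapped, and the E2 rats were nearly identical in Per2. Per1 (chr10:54299002-54313804), the period gene that also answers to glucocorticoids and to acute signals, had 165, 146 and 343 in E2 + 3-MC rats, against 161, 163 and 205 in E2 rats. Its log2 difference of 0.20 (SE 0.314) rested on rat 3 of the co-treated group, and without that rat it was -0.16.

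**Figure D2:**
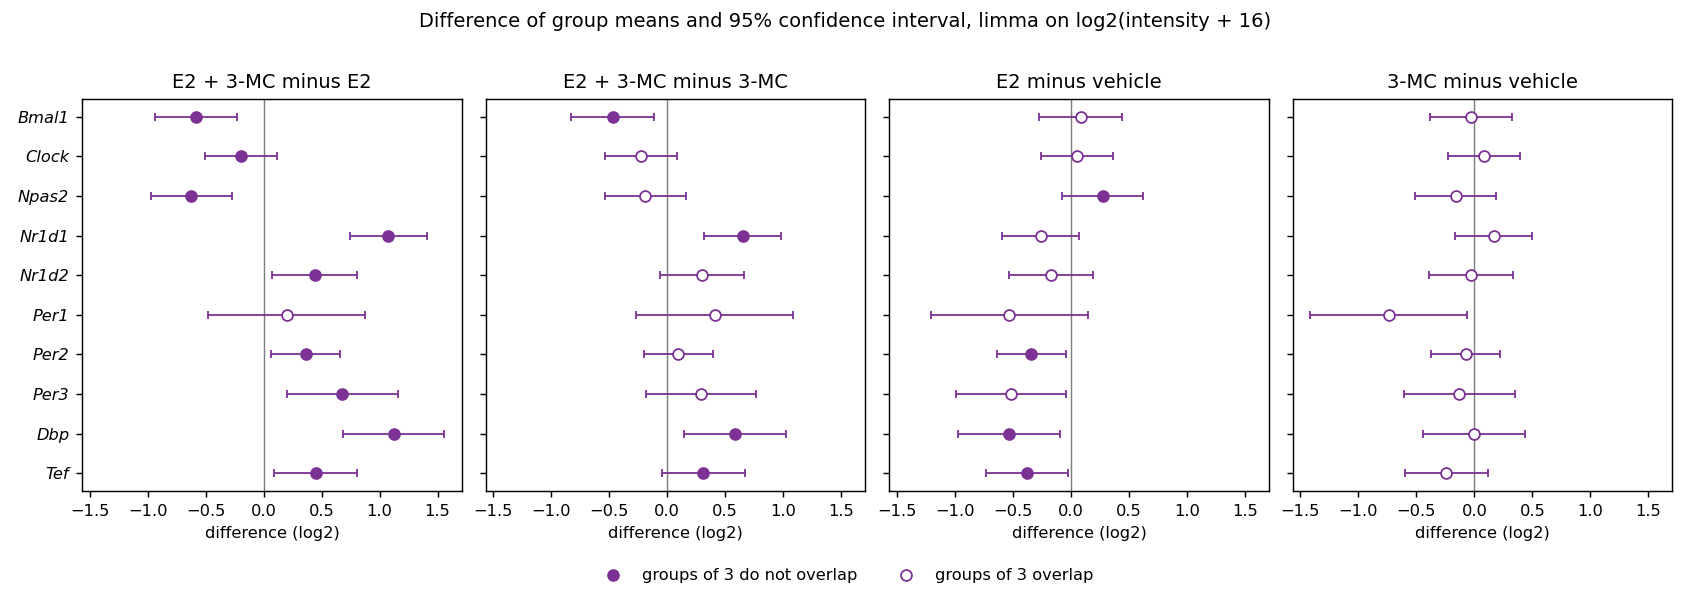
Difference of group means (log2, x axis) with its 95% confidence interval for each of the 10 members in 4 comparisons, with filled points where the groups of 3 rats did not overlap. In E2 + 3-MC minus E2, 9 of the 10 points are filled, and the signs divide the activators (Bmal1 -0.58, Npas2 -0.62) from the repressors and outputs (Nr1d1 1.07, Dbp 1.12), while in 3-MC minus vehicle 0 points are filled.

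In rats without E2, the members of 3-MC-treated and vehicle-treated rats lay close together. Between 3-MC and vehicle, 0 of the 10 members passed the test and 0.0% of all probe sets did (limma), with 1 member (Per1) at an unadjusted p below 0.05 and 1.5-fold, against 0.77% of all probe sets. In this comparison 0 members were without overlap in either direction, against 4.71% of all probe sets higher and 2.31% lower. Under both rescalings of the arrays Tef was lower without overlap. The share of all probe sets lower was then 5.01% after quantile normalization and 4.37% after centring. The median size of the difference was 0.108 over the members and 0.119 over all probe sets tested. Dbp averaged 259 ± 64.8 with 3-MC and 257 ± 57.5 with vehicle, and Nr1d1 differed by 0.17 (SE 0.153) on the log2 scale, or by 0.04 without vehicle rat 3. The largest value was that of Per1, with 122, 144 and 188 in 3-MC rats, against 302, 375 and 153 in vehicle-treated rats. Its log2 difference was -0.74 (SE 0.314, adjusted p = 0.92), and the groups overlapped through vehicle rat 3. Without vehicle rat 2 the difference of Per1 was -0.49. The intervals were wide, from -0.44 to 0.44 for Dbp, so a difference of that size was not detectable with these rats.

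E2 alone, set against vehicle, gave log2 differences below 0 in 7 of the 10 members, among them the outputs Dbp and Tef and all 3 period genes. Between E2 and vehicle, 0 of the 10 members passed (limma), against 1.58% of all probe sets, and 0 passed at an unadjusted p below 0.05 with the fold, against 3.95%. Npas2 was higher without overlap, against 10.1% of all probe sets, and Dbp, Tef and Per2 were lower without overlap, against 8.05%. Dbp averaged 170.0 ± 12.8 with E2 and 257 ± 57.5 with vehicle, a log2 difference of -0.54 (SE 0.204, adjusted p = 0.29). Per3 differed by -0.52 (SE 0.222, adjusted p = 0.369), Tef by -0.38 (SE 0.166, adjusted p = 0.381) and Per2 by -0.34 (SE 0.139, adjusted p = 0.33). Without vehicle rat 1 the difference of Tef was -0.18. Npas2 differed by 0.28 (SE 0.163, adjusted p = 0.578), and Bmal1 by 0.08 (SE 0.166). The separation of Npas2 was lost after a further quantile normalization, and that of Per2 was lost under either rescaling. The comparison shares its E2 rats with that of E2 + 3-MC against E2, so the opposite signs of the 2 comparisons are not independent.

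Co-treated rats also stood apart from vehicle-treated rats in a few members. Between E2 + 3-MC and vehicle, 0 of the 10 members passed (limma), against 0.163% of all probe sets, with Nr1d1 the 1 member at an unadjusted p below 0.05 and 1.5-fold, against 2.85% of all probe sets. Nr1d1 and Dbp were higher without overlap, against 10.5% of all probe sets, and Bmal1 was lower without overlap, against 3.68%. The log2 differences were 0.81 for Nr1d1 (SE 0.153, adjusted p = 0.0635), 0.58 for Dbp (SE 0.204, adjusted p = 0.417) and -0.50 for Bmal1 (SE 0.166, adjusted p = 0.396). Without vehicle rat 3 the difference of Bmal1 was -0.31. Nr1d1 was called with a stricter filter on low values (with 0.288% of all probe sets then tested), with a pseudocount of 32 (with 0.184%) and with array weights (with 0.265%). Clock and Npas2 were also lower without overlap when the arrays were centred on their medians, where 11.5% of all probe sets were lower. Per2 and Per3 differed by 0.02 (SE 0.139) and 0.16 (SE 0.222).

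The effect of E2 in rats that also received 3-MC was read from the co-treated rats and those given 3-MC alone. Between E2 + 3-MC and 3-MC, 0 of the 10 passed (limma), against 0.111% of all probe sets, and 1 (Nr1d1) did at an unadjusted p below 0.05 with the fold, against 1.15%. Nr1d1, Dbp and Tef were higher without overlap, against 4.48% of all probe sets, and Bmal1 was lower without overlap, against 3.48%. The log2 difference of Nr1d1 was 0.65 (SE 0.153, adjusted p = 0.265), that of Dbp 0.58 (SE 0.204, adjusted p = 0.849) and that of Bmal1 -0.47 (SE 0.166, adjusted p = 0.849). Without 3-MC rat 2 the difference of Dbp was 0.38. Rescaling the arrays added Nr1d2 to the higher members, against 5.64% of all probe sets after quantile normalization and 4.28% after centring. Per3 was added on the higher side by quantile normalization only. Clock was added on the lower side by centring only, against 7.62% of all probe sets. All of these comparisons share the E2 + 3-MC rats.

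The difference that E2 made in rats given 3-MC was set against the one it made in rats without 3-MC. In this interaction 0 of the 10 members and 0.0% of all probe sets passed (limma), with 4 members (Dbp, Nr1d1, Per3 and Tef) at an unadjusted p below 0.05 and 1.5-fold, against 2.54% of all probe sets. The interaction was 1.12 on the log2 scale for Dbp (SE 0.288, adjusted p = 0.894), 0.91 for Nr1d1 (SE 0.217, adjusted p = 0.894), 0.81 for Per3 (SE 0.314, adjusted p = 0.982) and 0.69 for Tef (SE 0.234, adjusted p = 0.982). It was -0.55 for Bmal1 (SE 0.234, adjusted p = 0.982) and -0.46 for Npas2 (SE 0.23, adjusted p = 0.982), or -0.31 for Npas2 without rat 2 of the co-treated group. Averaged over rats with and without E2, the main effect of 3-MC passed for 0 of the 10 members and for 0.0% of all probe sets, with Nr1d1 at 0.62 (SE 0.108, adjusted p = 0.419), Dbp at 0.56 (SE 0.144, adjusted p = 0.419) and Npas2 at -0.39 (SE 0.115, adjusted p = 0.419), and Nr1d1 was the 1 member at an unadjusted p below 0.05 and 1.5-fold, against 1.5% of all probe sets.

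Each gene was also expressed as a ratio to Bmal1 within the same rat, relative to the vehicle mean. For Nr1d1 this log2 ratio was 1.34, 1.20 and 1.40 in E2 + 3-MC rats, against -0.22, -0.32 and -0.49 in E2 rats. It was -0.04, 0.05 and 0.57 in 3-MC rats, against 0.41, 0.22 and -0.63 in vehicle-treated rats. The co-treated rats were above all others, and vehicle rat 3 was the lowest of all 12. For Dbp the ratio was 0.86, 0.94 and 1.46 in E2 + 3-MC rats, against -0.60, -0.61 and -0.65 in E2 rats, and no other rat exceeded 0.52. For Nr1d2 it averaged 0.77 ± 0.18 with E2 + 3-MC and -0.26 ± 0.03 with E2 (SD, n = 3 each), and the highest other rat was at 0.48. For Per2, Per3 and Tef the co-treated rats overlapped with vehicle-treated rats.

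**Figure D3:**
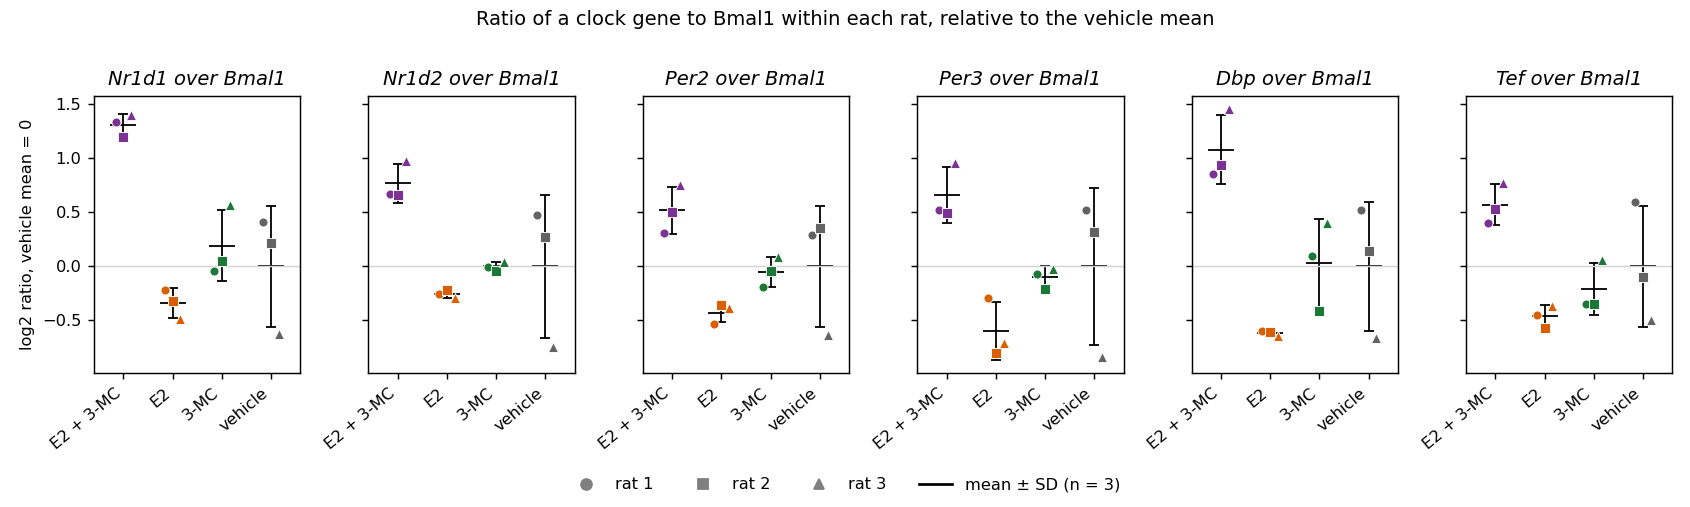
Log2 ratio of 6 members to Bmal1 within each rat, set to 0 at the vehicle mean (y axis), for the groups E2 + 3-MC, E2, 3-MC and vehicle, with symbols for rats 1 to 3 and bars for the mean ± SD (n = 3). The E2 + 3-MC rats are above all others for Nr1d1 (1.20 to 1.40), Nr1d2 and Dbp, and the vehicle-treated rats spread widely, with rat 3 at -0.63 for Nr1d1.

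The vehicle-treated rats differed among themselves in most members. Vehicle rat 3 had the highest Bmal1 of all 12 rats (255) with the lowest Nr1d1 of its group (452), and also the lowest Dbp, Per1, Per2 and Per3 of that group. Its Per1 was 153, against 302 and 375 in the other vehicle-treated rats. Among 3-MC rats, rat 3 had the lowest Bmal1 (157) and the highest Nr1d1 (672) of its group. The mean log2 level of skeletal muscle markers was 5.61 in vehicle rat 3, against 10.91 and 11.28 in the other vehicle-treated rats. In 3-MC rat 3 that level was 5.84, against 10.33 and 10.91 in the other 3-MC rats. The part of muscle in this spread was not tested. The SD of the log2 ratio of Nr1d1 to Bmal1 was 0.1 with E2 + 3-MC, 0.14 with E2, 0.33 with 3-MC and 0.56 with vehicle.

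Other genes of the clock loop were taken from a list. Of the 12 measured genes of that list, 0 passed in any comparison. Their median log2 difference between E2 + 3-MC and E2 was -0.06. There 0 were higher without overlap, against 12% of all probe sets, and 1 was lower, against 5.93%. That gene was Btrc, a ubiquitin ligase subunit for PER proteins, with a mean of 183 with E2 + 3-MC and 209 with E2 (log2 -0.17, SE 0.116), and it was named after its values were seen. Cry2, a cryptochrome, had 230.1 ± 20.5 with E2 + 3-MC and 196 ± 12.8 with E2, and Bhlhe40 and Bhlhe41, the DEC repressors, had 473 ± 95.8 and 563 ± 97.1 with E2 + 3-MC, against 424 ± 35.9 and 551 ± 43.2 with E2. Wdr5, a histone methylation cofactor found with PER complexes, had 222 ± 3.67 with E2 + 3-MC and 224 ± 22.4 with E2. Cry1, the other cryptochrome, named after its values were seen, had 54.4 ± 12.6 with E2 + 3-MC and 58.5 ± 5.70 with E2. The rats of both groups overlapped in each of these 5 genes. Against vehicle (75.8 ± 7.05), Cry1 was lower without overlap both with E2 and with E2 + 3-MC. Of the list, 3 genes were higher and 2 lower without overlap between E2 and vehicle, against 10.1% and 8.05% of all probe sets. Between E2 + 3-MC and vehicle 2 were higher and 1 lower, against 10.5% and 3.68%.

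Of the 11 measured genes of the list of other clock outputs, 0 passed in any comparison. Between E2 + 3-MC and E2, 1 was higher and 1 lower without overlap, against 12% and 5.93% of all probe sets. Tspan4, a tetraspanin, had 376, 395 and 485 in E2 + 3-MC rats, against 330.2, 309 and 321 in E2 rats. Wee1, a cell cycle kinase under clock control in mouse liver, had 109, 120 and 159 in E2 + 3-MC rats, against 194, 180.0 and 181 in E2 rats, a log2 difference of -0.49 (SE 0.152, adjusted p = 0.437). Nampt, the rate-limiting enzyme of NAD salvage, had 562, 923 and 1024 in E2 + 3-MC rats, against 604, 542 and 517 in E2 rats, and Cdkn1a, which encodes the inhibitor p21, had 195, 752 and 558 in E2 + 3-MC rats, against 223, 247 and 252 in E2 rats. Rat 1 of the co-treated group lay among the E2 rats in Nampt and below them in Cdkn1a, whereas in Nr1d1 it was the highest of all.

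Among 11 glucocorticoid response genes, 5 were higher in E2 + 3-MC than in E2 rats without overlap, against 12% of all probe sets. They were Tsc22d3, Fkbp5, Dusp1, Mt1 and Mt2A, named after their values were seen. The median log2 difference was 0.35 over the list and 0.05 over all probe sets, and 0 of the list passed in this comparison. Between E2 and vehicle, 4 of the list were lower without overlap, against 8.05% of all probe sets, and 0 higher, against 10.1%. Between E2 + 3-MC and vehicle, 1 was higher, against 10.5%, and 1 lower, against 3.68%, with a median of -0.14 over the list. Fkbp5, an immunophilin that tunes the glucocorticoid receptor, averaged 108 ± 17.7 with E2 + 3-MC and 63.7 ± 1.84 with E2. The list also held the 1 gene that passed between E2 and vehicle, Dusp1, a phosphatase of MAP kinases, which fell to 432 ± 36.6 with E2, against 891 ± 110.3 with vehicle (log2 -1.01, adjusted p = 0.00441, limma). Of 8 measured immediate early genes, Fos and Junb were higher without overlap in E2 + 3-MC than in E2 rats, against 12% of all probe sets. Egr2 rose with E2 relative to vehicle (log2 1.46, adjusted p = 0.0155, limma). Of 7 measured temperature and heat shock genes 0 separated E2 + 3-MC from E2, against 12% of all probe sets higher and 5.93% lower. The part of these genes in the values of the members was not tested.

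The labels were checked on known targets. Pgr, the progesterone receptor and a classical target of E2, had 619, 411 and 575 in E2 + 3-MC rats and 795, 838 and 722 in E2 rats, against 38.3, 45.6 and 31.1 in vehicle-treated rats. Cyp1b1, a classical target of AHR, had 154, 560.2 and 407 in E2 + 3-MC rats and 553, 101 and 588 in 3-MC rats, against 161, 127 and 211 in vehicle-treated rats. By Cyp1b1, rat 1 given E2 + 3-MC and rat 2 given 3-MC were within or below the range of the vehicle-treated rats. In E2 rats Cyp1b1 was 97.7, 88.3 and 107, all below rat 1 given E2 + 3-MC, whereas rat 2 given 3-MC lay among them. Between 3-MC and vehicle Cyp1b1 overlapped and did not pass (adjusted p = 0.92, limma). Of 13 tested genes listed for the AHR pathway and related PAS factors, 0 passed and 0 were without overlap there. Between E2 + 3-MC and E2, 5 of the 13 were higher without overlap, against 12% of all probe sets, and 0 lower. Csn2 (a milk casein) and Areg (amphiregulin, an EGF receptor ligand) rose as Pgr did with E2 + 3-MC and with E2 relative to vehicle. The E2 + 3-MC rat 1 had the highest Nr1d1 of all 12 rats and a Dbp of 355, and it also had the highest Bmal1 (142) and Npas2 (397) of its group. The relation of the members to Cyp1b1 was not tested.

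The glands carried the markers of their tissue in every rat, with summed intensities of 5103 to 10230 for 10 luminal epithelial markers and of 16460 to 25000 for 10 white adipocyte markers, and some markers moved with the groups. Between E2 and vehicle, where 1.58% of all probe sets passed, 6 luminal markers rose (Krt18, Cdh1, Cldn3, Cldn7, Esrp1 and Muc1, by 0.61 to 1.1 on the log2 scale). The basal keratins Krt14 (1.36) and Krt17 (1.18) and Cd14 (0.84) also rose. The 3 adipocyte markers that fell were Lpl (-0.72), Pparg (-1.02) and Retn (-1.60). Without overlap, all 10 luminal markers were higher, against 10.1% of all probe sets, and 9 of 10 adipocyte markers were lower, against 8.05%. The part of these shifts in the members' values was not tested. Retn also fell with E2 + 3-MC relative to vehicle (-1.35) and to 3-MC (-1.46). The mean log2 level of 10 skeletal muscle markers was 6.87, 7.24 and 6.0 in E2 + 3-MC rats and 8.74, 6.44 and 7.94 in E2 rats. It was 10.33, 10.91 and 5.84 in 3-MC rats, against 10.91, 11.28 and 5.61 in vehicle-treated rats. In summed intensity no E2 + 3-MC rat exceeded 1810 and no E2 rat exceeded 5690. Rats 1 and 2 of the 3-MC and vehicle groups were rich in muscle RNA, with sums of up to 22560 with 3-MC and 30800 with vehicle. Without these 4 arrays, E2 + 3-MC against E2 is by construction the fit of only its 6 arrays again, so it is no check on muscle. The interaction of Bmal1 was then 0.07 in place of -0.55 and that of Nr1d1 was 0.52, resting on 1 rat each with 3-MC and vehicle. With the muscle level as a covariate over all 12 arrays, the interaction was -0.57 for Bmal1 and 0.93 for Nr1d1. The part of muscle in the members' values was not tested further.

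Myeloid markers moved with the comparison of E2 + 3-MC with E2. Of 8 such markers 6 were higher without overlap, against 12% of all probe sets, with a median log2 difference of 1.21 over the 8. The summed intensity of the 8 was 5364 to 9665 in E2 + 3-MC rats, against 3986 to 4733 in E2 rats. Their mean log2 level was 8.87, 9.69 and 9.56 in E2 + 3-MC rats, against 8.37, 8.35 and 8.59 in E2 rats. In 3-MC rats the level was 9.81, 8.61 and 9.61, against 8.55, 8.17 and 9.51 in vehicle-treated rats. Within the co-treated group, rat 1 had the lowest myeloid level and the highest Nr1d1, Bmal1 and Npas2, and rat 2 had the highest myeloid level and the lowest of all 3 genes. The part of myeloid cells in the members' values was not tested beyond the covariate. With the myeloid level as a covariate the log2 difference between E2 + 3-MC and E2 was 1.20 for Nr1d1, 1.01 for Dbp, -0.74 for Bmal1 and -0.52 for Npas2. Of 10 luminal epithelial markers 5 were lower without overlap, against 5.93% of all probe sets. The summed intensity of the 10 was 5974 to 7650 in E2 + 3-MC rats, against 8001 to 10230 in E2 rats. The part of this in the members' values was not tested. All 4 lymphocyte markers tested were higher without overlap (median log2 difference 0.92), against 12% of all probe sets. The medians of the fibroblast, endothelial and adipocyte lists were 0.06, 0.11 and 0.21. That of the 10 skeletal muscle markers was -1.10, with 0 of them without overlap, against 12% of all probe sets higher and 5.93% lower. The median of 5 basal epithelial markers was -0.32. Of them 2 were lower without overlap, Krt14 (-1.1) and Krt17 (-0.97), against 5.93% of all probe sets.

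**Figure D4:**
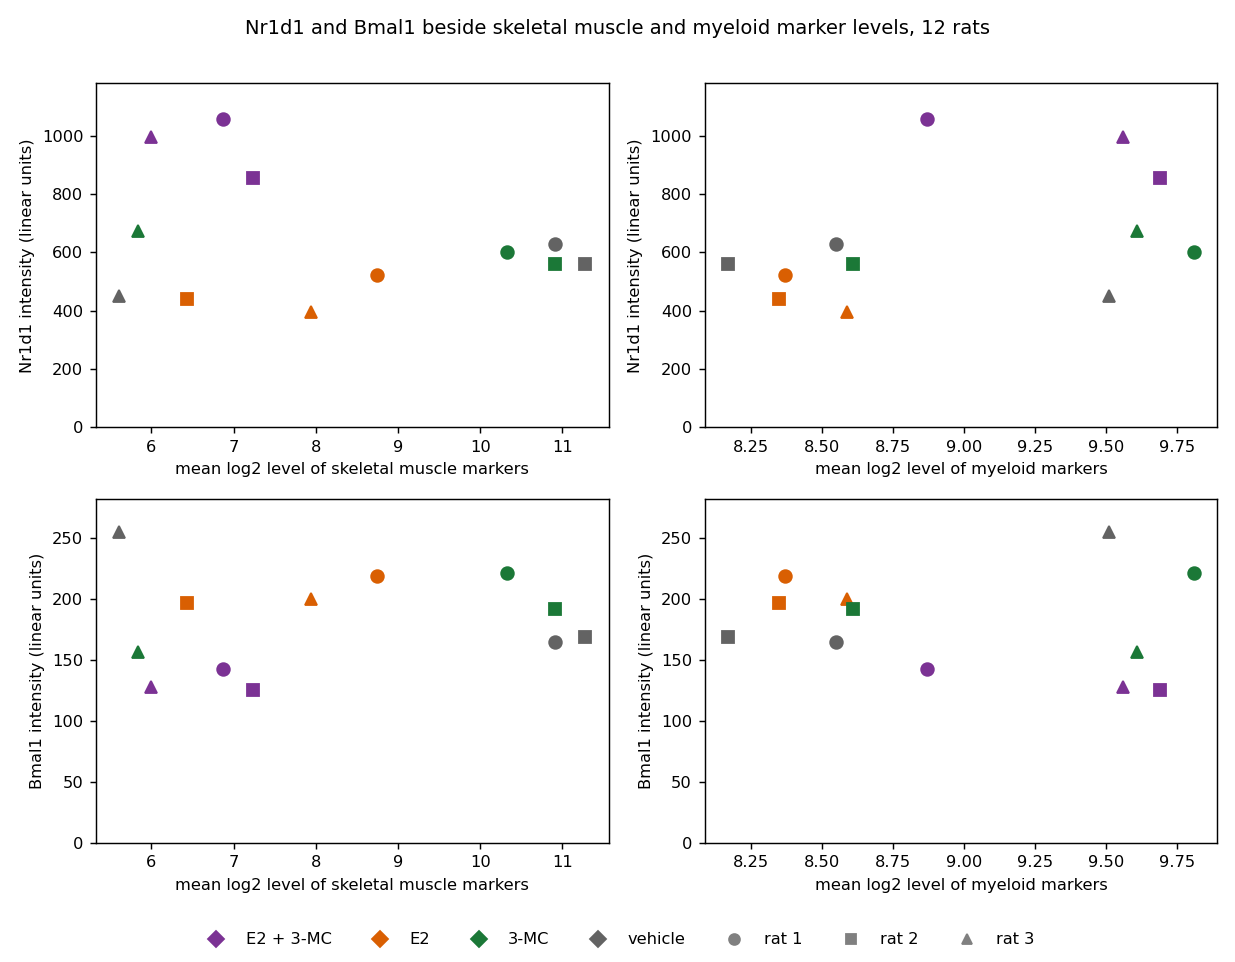
Intensity of Nr1d1 (upper panels) and Bmal1 (lower panels) against the mean log2 level of 10 skeletal muscle markers (left) and 8 myeloid markers (right), 1 point per rat, coloured by group. The E2 + 3-MC rats lie apart in Nr1d1 (853 to 1058) at low muscle levels (6.0 to 7.24) and over the range of myeloid levels from 8.87 to 9.69.

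Across the 12 arrays, members on the same side of the loop varied together, which is a description over rats that share the group differences above. Pearson's r with Dbp was 0.90 for Nr1d1, 0.83 for Per3, 0.82 for Nr1d2, 0.80 for Tef and 0.75 for Per2, but 0.35 for Per1. With Bmal1 it was 0.75 for Npas2 and 0.53 for Clock, and -0.83 for Nr1d1 and -0.73 for Dbp. Among 12410 other genes, the 5 most like Bmal1 were Dhx36 (r = 0.868), Emp2 (0.852), Col14a1 (0.84), Mansc1 (0.839) and Rfx3 (0.838), and the least like was Ctsg (-0.785), followed by Amz1, Il27ra, Iqcf1 and Tg. The 5 most like Dbp were C1rl (0.906), Fth1 (0.894), Or51ab3 (0.888), Zfp524 (0.883) and B2m (0.876), and the least like was Ephb1 (-0.843), followed by Irx4, Ptprt, Emp2 and Ptprz1. The r of Nr1d1 with Dbp was thus near that of the gene most like Dbp in the whole table, and the r of Npas2 with Bmal1 was below that of all 5 genes most like Bmal1.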

How the data were processed

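Gene expression was measured on Affymetrix Rat Gene 1.0 ST arrays, with 3 rats in each of the groups E2 + 3-MC, E2, 3-MC and vehicle and 1 array per rat. The authors normalized the arrays with the Probe Logarithmic Intensity Error method (PLIER, quantile-normalized), and the deposited values are intensities on a linear scale. Per the submitters' processing notes, Affymetrix Expression Console was used. Versions and the genome build of the annotation are not given in the sources used here. Array medians were 85.7 to 109.5, and precision is limited by having 3 arrays a group.

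Values were taken as log2(intensity + 16). Of 29214 probe sets, those above the 20th percentile of the mean were kept, which left 23371. All 12 arrays were fitted in 1 model of 4 group means with limma 3.58.1 in R 4.3.3, and p values were adjusted by Benjamini-Hochberg over all probe sets tested. A probe set was called at an adjusted p below 0.05 and at least 1.5-fold. The same fit was tested on simulated data. Of all probe sets, 15310 had 1 gene symbol, 323 had several and 13581 had none in the annotation used, and genes were named only from the 15310. Gene positions and start regions are from RefSeq (GRCr8).

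The members and gene lists were chosen with earlier results of these data known. The naming rule took all 10 members, every other listed gene that was called in any comparison or, otherwise, at most 4 per list with the largest main effect of 3-MC, and the 5 genes most and least like Bmal1 and Dbp. Where labels give rats of different groups the same number, the correlation of their deviations from the group means was checked. It was 0.341, 0.442 and 0.564 for 3-MC and vehicle, and 0.13, 0.0809 and 0.137 for E2 + 3-MC and E2. In both the 3-MC and the vehicle group, rats 1 and 2 were rich in muscle RNA and rat 3 was not. The part of muscle in these correlations was not tested. Nothing in the labels says that a number marks a shared animal, litter or day. The main model took no rats as pairs, and a block by rat number was run only as an alternative. Alternatives changed the filter, the pseudocount, the scaling, the variance model, the samples in the fit, the covariates and the rats included.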

Additional observations from a re-analysis of the deposited data

Results flagged for a closer look

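For 7 members, every E2 rat lay on one side of the vehicle mean while every E2 + 3-MC rat lay on the opposite side of the 3-MC mean. The share of all probe sets with this pattern was not computed, so the count is a description only. On the log2 scale the interaction of E2 and 3-MC was 1.12 for Dbp, 0.91 for Nr1d1, 0.81 for Per3, 0.69 for Tef, 0.47 for Nr1d2, -0.28 for Clock and -0.55 for Bmal1. The test of the difference itself (limma) passed for 0 of the 7, with adjusted p values from 0.894 to 0.982. The remaining members Npas2 (-0.46), Per1 (0.94) and Per2 (0.44) did not show this pattern in every rat. Without vehicle rat 2 the interaction of Clock was -0.17, and without E2 + 3-MC rat 3 that of Per1 was 0.58. Without the 4 muscle-rich arrays the interaction of Bmal1 was 0.0658. Groups of 3 rats are too small for an outlier test.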

How the results depend on the processing

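Of the 10 members, 0 passed in each of the 7 comparisons when any 1 rat was left out, with a replicate block over all 12 arrays (0 calls in each), without a filter, with a pseudocount of 1, after a second quantile normalization or median centring, with 1 probe set per gene, with trend and robust settings, and with muscle as a covariate. The same was found with the methods' t-test, which was run only between pairs of groups. That t-test called 7 of 23371 probe sets between E2 and vehicle and 0 in every other pair, so its result says little about the members. The other settings named here called 89 to 493 probe sets between E2 and vehicle. They called at most 10 between E2 + 3-MC and E2, and 0 between 3-MC and vehicle. Between E2 + 3-MC and vehicle 1 member (Nr1d1) passed with the filter at the 50th percentile, a pseudocount of 32, array weights or the unadjusted p. Between E2 + 3-MC and E2, 2 (Dbp and Nr1d1) passed with array weights and with only the 6 arrays, and 1 (Nr1d1) with the myeloid covariate. At the unadjusted p 4 passed (Dbp, Nr1d1, Per3 and Npas2). Leaving out the 4 muscle-rich arrays gives the fit of the 6 arrays again here, so it is no separate alternative. With the replicate block in only these 6 arrays 4 passed (the same as with the unadjusted p), although the rats of these groups share only a number. The unadjusted p gave 1 in 3-MC against vehicle, in E2 + 3-MC against 3-MC and in the main effect of 3-MC, and 4 in the interaction. Over all probe sets, E2 + 3-MC against E2 gave 0 calls in the model of 4 groups, 359 in the 6 arrays, 697 there with the block, 56 with the myeloid covariate, 7 with array weights and 2 after quantile normalization. The cause of these changes was not tested. The fits of only 2 groups with a block, the myeloid covariate and the fit without muscle-rich arrays were chosen after seeing the data. The mean of all probe sets of a gene was not run, since each member has 1. Tef is absent under the 50th percentile filter.

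In E2 + 3-MC against E2 the differences of 9 members kept their sign in all alternatives, and Per1 spanned -0.16 to 0.41 when single rats were left out. Signs changed in other comparisons, with log2 differences given here. Without the muscle-rich arrays they were, against vehicle, -0.29 (Bmal1), 0.20 (Nr1d2) and 0.18 (Per1) for E2, -0.052 (Clock), 0.14 (Nr1d2), 0.41 (Dbp), 0.27 (Per1), 0.084 (Per2) and 0.17 (Per3) for 3-MC, and 0.37 (Per1) for E2 + 3-MC. They were 0.014 for Npas2 in E2 + 3-MC against 3-MC, 0.23 for Per1 in the main effect, and 0.066 for Bmal1 and -0.073 for Per1 in the interaction. Array weights gave -0.015 (Bmal1, E2 against vehicle), -0.014 (Clock) and 0.082 (Dbp, 3-MC against vehicle). That comparison of 3-MC with vehicle gave 0.00047 for Dbp with a pseudocount of 32, 0.0029 for Dbp with muscle and 0.073 for Nr1d2 with the myeloid covariate. In E2 + 3-MC against vehicle, Tef was -0.028 under both rescalings, and Per2 was -0.071 after quantile normalization and -0.076 after centring. Leaving out single rats gave, for E2 against vehicle, -0.019 to 0.27 (Bmal1) and -0.058 to 0.18 (Clock), and for 3-MC against vehicle, -0.14 to 0.16 (Bmal1), -0.028 to 0.21 (Clock), -0.22 to 0.10 (Nr1d2), -0.14 to 0.21 (Dbp), -0.21 to 0.017 (Per2) and -0.36 to 0.024 (Per3). It gave -0.068 to 0.27 (Tef), -0.11 to 0.11 (Per2) and -0.069 to 0.32 (Per3) for E2 + 3-MC against vehicle, and -0.11 to 0.0056 for Clock in the main effect.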
